A study of Mus musculus with 18 samples.

Results

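The genes described here are 40 integrin and focal adhesion genes, the cell's attachment machinery to its surroundings, in mouse marrow mesenchymal stem cells (MSC) whose actin had been altered in the cytoplasm, in the nucleus or in both. The members were taken by symbol from a list. All 40 were found among the 54347 genes of the deposited RNA-seq table. The table holds 18 libraries of total RNA from MSC of male C57BL/6J mice, 3 for each of 6 groups. In the first experiment, MSC were left as control or given CK666, which inhibits filament branching by the Arp2/3 complex, or cytochalasin D (CytoD), which blocks filament growth at the barbed end. In the second experiment every group was transfected, namely siControl (the siRNA control), siArp4 (siRNA against Arp4) and siArp4+CK666 (the same with CK666 added). Arp4 is the nuclear actin-related protein encoded by Actl6a, a subunit of chromatin remodelling complexes. CK666 in siControl cells was not analysed here. The libraries of a group come from distinct preparations, and nothing in the labels ties them to different animals, so p-values measure the spread between these preparations.

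Integrins are membrane receptors made of 1 alpha and 1 beta chain. Outside the cell they hold fibronectin, collagen, laminin or vitronectin, and inside it the beta tail is bound by talin and kindlin, which switch the receptor on and join it to actin. Around that core gather an ILK, PINCH and parvin complex, the kinases FAK and Src, and the adaptors paxillin, p130Cas, tensin and VASP, and in marrow MSC this assembly carries matrix stiffness and strain into the choice between the fat and bone lineages.

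The upstream sequences of Itga5, Itgb5 and Itgav are shown because these 3 are, with Itgb1, the most abundant chains of the fibronectin and vitronectin receptors here, and because the first 2 rose after Arp4 knockdown while the third did not pass the test. Each is the 250 bases before the annotated start from RefSeq (GRCm38.p6), read 5′ to 3′ on the strand of the gene, at chr15:103366792-103367041 (minus strand), chr16:33829415-33829664 (plus strand) and chr2:83724147-83724396 (plus strand). Capitals mark the GC box GGGCGG or its reverse complement.
Itga5: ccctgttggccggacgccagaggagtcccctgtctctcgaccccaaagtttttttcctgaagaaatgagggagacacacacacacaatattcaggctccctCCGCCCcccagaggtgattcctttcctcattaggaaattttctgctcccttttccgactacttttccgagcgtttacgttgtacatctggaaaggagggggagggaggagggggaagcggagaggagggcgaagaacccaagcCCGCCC
Itgb5: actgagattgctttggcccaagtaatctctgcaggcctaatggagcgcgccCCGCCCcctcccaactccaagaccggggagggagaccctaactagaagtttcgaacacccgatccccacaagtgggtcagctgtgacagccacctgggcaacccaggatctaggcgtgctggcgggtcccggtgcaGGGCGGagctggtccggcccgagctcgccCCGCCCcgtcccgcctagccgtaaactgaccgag
Itgav: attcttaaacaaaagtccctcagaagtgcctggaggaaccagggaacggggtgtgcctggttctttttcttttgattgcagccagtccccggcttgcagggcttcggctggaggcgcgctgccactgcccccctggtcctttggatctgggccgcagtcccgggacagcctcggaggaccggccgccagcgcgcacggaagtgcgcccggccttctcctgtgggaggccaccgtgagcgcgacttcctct
The windows of Itga5 and Itgb5 hold 2 and 3 GC boxes and that of Itgav holds 0, while their GC contents are 55.6%, 65.2% and 64.4%. Of all 32851 promoter windows of this length, 32.7% hold a GC box on either strand. Among the members, 28 matched the table by symbol, with 35 windows, of which 20 (57.1%) hold one. The search, on both strands, also covered the TEAD core GGAATG (12.6% of all windows, 2 member windows), the AP-1 site TGANTCA (6.75% of all windows, 0 member windows) and the CArG box (1.47% of all windows, 1 member window). The last 3 motifs have no match in the windows printed, so no match there overlaps another. These are matches of letters only and were not tied to any measurement.

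The libraries held 18075610 to 24733212 estimated counts, with 12563 to 13234 genes at 10 counts or more. Normalized counts below are deposited counts divided by the DESeq2 size factor of the experiment, and levels from the 2 experiments are therefore never compared. Actl6a stood at 720.5, 1126 and 840.4 normalized counts in the siControl libraries, at 48.8, 56.7 and 19.4 in those of siArp4 and at 9.39, 23.3 and 17.4 when CK666 was added (log2 fold change ± SE -4.42 ± 0.41 and -5.73 ± 0.44, DESeq2 adjusted p = 2.59e-25 and 6.33e-37). Of 11 mesenchymal stromal markers, Pdgfra, Pdgfrb, Prrx1, Col1a1 and Cxcl12 were above 1000 in every library, whereas Thy1 was 0 in all 18, Nt5e was 0 to 8.42 and Lepr was 0.664 to 37.9. Of leukocyte, endothelial, epithelial and erythroid or megakaryocyte markers, Cd3e, Cdh5, Emcn, Tie1, Epcam, Krt14, Hbb-bt and Gp9 were at 0 in all 18 libraries and Ptprc, Adgre1 and Tyrobp in 17. Others were present in every library at low levels, among them the leukocyte markers Cd68 (15.2 to 112 normalized counts), Csf1r (12.4 to 181), Lyz2 (10.9 to 188) and Cd14 (40.3 to 128), the endothelial marker Vwf (2.61 to 233) and the megakaryocyte chain Itga2b (8.21 to 145). The siControl libraries stood apart from one another along transcript length. In replicate 2, genes with long transcripts (over 6000 bases) lay below those with short ones (under 1500 bases). As deviations from the mean of the group's other libraries, the difference was -1.51 on the log2 scale. Replicate 1 of siControl had 1.71, and CK666 replicate 1 had -1.13. With each library's length trend removed, no member lost a call in any comparison and 22 further member results passed the test. Counts of members are also given without siControl replicate 2 or CK666 replicate 1.

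Of the 40 members, 36 had enough counts to be tested. Itga2, Itga4, Itga8 and Fermt1 could not be, and Fermt1 (kindlin-1, the epithelial form) had no count in any of the 18 libraries, a result that permits at most 3 counts per library. In untreated MSC, levels per kilobase of exon were led by Itgb1, the beta chain shared by the fibronectin, collagen and laminin receptors, at 5996 normalized counts per kilobase. Itgb5, a vitronectin receptor chain, followed at 2154, and Ilk, the scaffold pseudokinase that binds beta tails, at 1764. Lims1, the ILK partner PINCH1, came at 1295, the talin gene Tln1 at 1253 and Itga5, the fibronectin receptor alpha chain, at 1162. Across libraries Tln1 overlapped both Lims1 and Itga5, which did not overlap each other. Itgav, the alpha chain of vitronectin receptors, came next at 964, followed by Fermt2, or kindlin-2, at 866. This order holds for the union of exons. With lengths of the longest transcript (4415 bases for Itga5, 7054 for Itgav, 3293 for Fermt2), Itgav and Fermt2 would rank above Itga5. Over the 6 comparisons within experiments, 29 members passed an adjusted p of 0.01 at least once, 20 of them with more than a 2-fold change, and 11 never did. These 11 were the 4 untested genes with Itga7, Itga10, Itgb4, Itgb8, Tns1, Git2 and Vasp. The members that passed at least once were 80.6% of the 36 tested, and 55.6% past 2-fold, against 58.0% and 35.6% of the 16069 genes tested in any comparison.

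**Figure D1:**
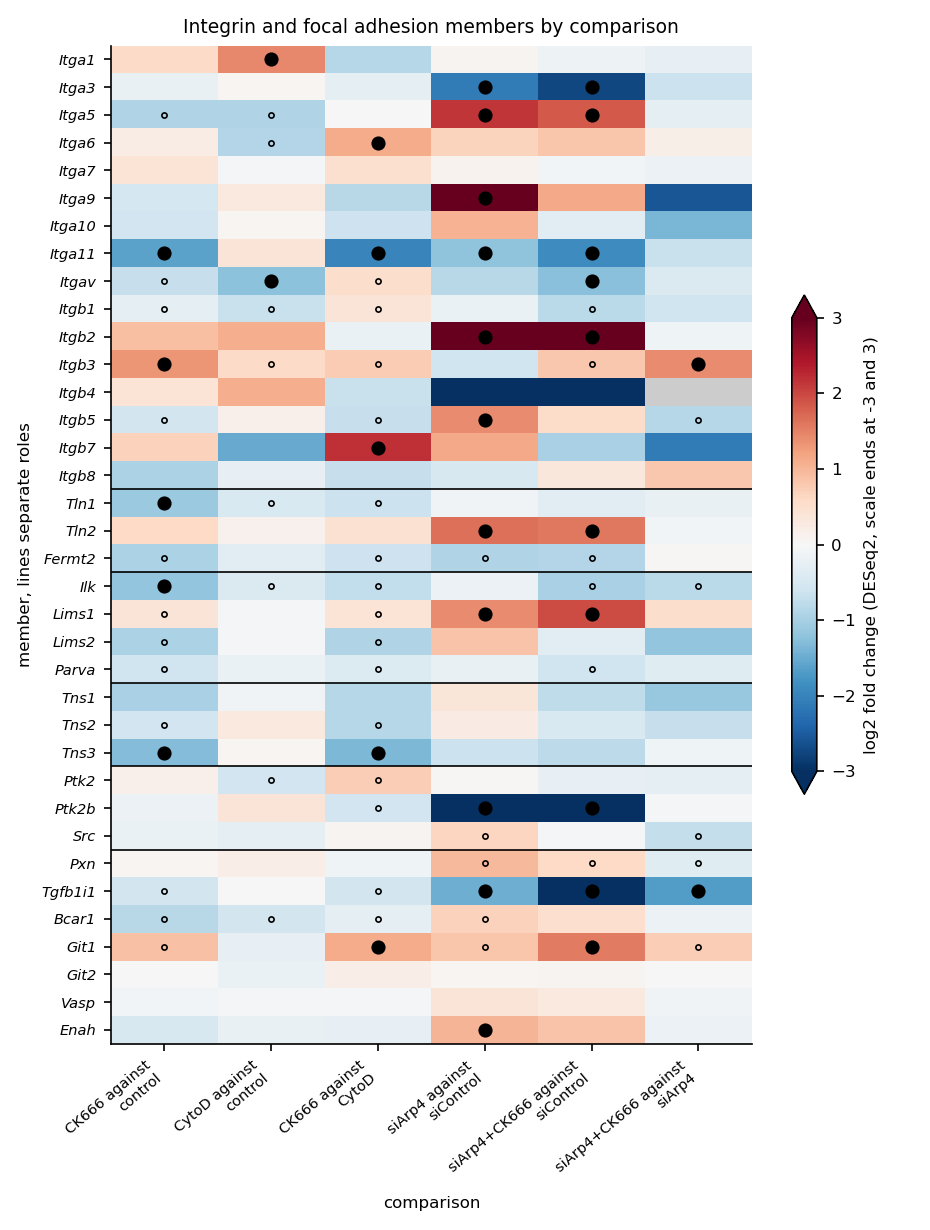
Log2 fold change (DESeq2, colour scale ending at -3 and 3) of the 36 members tested (rows, lines separating roles) in 6 comparisons (columns), with a filled circle for members past adjusted p 0.01 and 2-fold, an open circle for adjusted p 0.01 alone and grey where not tested. The plot shows lower values for most members with CK666 and changes in both directions after siArp4.

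Many genes of the adhesion machinery were lower with CK666. Talin, ILK, kindlin-2, the fibronectin receptor chain Itga5 and the collagen receptor chain Itga11 all fell, and the beta chain Itgb3 rose. At adjusted p under 0.01 (DESeq2 Wald test, Benjamini-Hochberg over all genes tested), 14 of the 36 members tested were lower and 3 higher in CK666 than in control, 38.9% and 8.33%, against 14.7% and 15.3% of all genes. With the further requirement of a 2-fold change, 4 fell and 1 rose. That is 13.9% of members tested against 11.0% of all genes (6.06% lower and 4.89% higher). Without CK666 replicate 1 the count was again 5, not necessarily of the same members. By role, 5 of 16 integrin chains tested, 2 of 3 talins and kindlins, 3 of 4 genes of the ILK complex, 2 of 3 tensins and 2 of 7 scaffolds fell, and 0 of 3 kinases. The median log2 fold change of the members was -0.39, against 0.01 over all genes tested. Mesenchymal stromal markers moved with the members, 6 of 9 tested being lower in CK666 and 0 higher. The 11 markers of that list summed to 113995 to 120130 in control and 50711 to 59315 in CK666. Of 2 endothelial markers tested, 1 was higher, and of 5 leukocyte markers tested, 1 was higher and 1 lower. The part of these markers' shift in the members' result was not tested. Bulk RNA cannot tell fewer cells of a type from less RNA per cell, here or in any result that follows.

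Tln1, which couples integrin tails to actin, stood at 10970.5, 13414 and 12462 normalized counts in control and 4496, 6558 and 6049 in CK666 (log2 change -1.11 with SE 0.15, adjusted p = 7.03e-13). Every CK666 library lay below every control library. Ilk read 5001, 4610.1 and 4909 in control and 2374, 1918 and 2102 in CK666, 2.27-fold lower (log2 change -1.18 with SE 0.10, adjusted p = 7.04e-30). Its ranges stood well apart. The annotated Tln1 and Ilk genes overlap Creb3 and Taf10 on the opposite strand, and the libraries carry no strand, so reads from the overlaps cannot be told apart.

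Itga11, a collagen receptor chain of mesenchymal cells, had 133, 174 and 138 normalized counts in control and 37.6, 61.2 and 48.1 in CK666 (log2 change -1.60 with SE 0.24, adjusted p = 2.35e-10). The tensin gene Tns3, whose product ties integrin tails to actin in mature adhesions, had 5112, 5416 and 5503 and 1441, 2794 and 2276 (log2 change -1.30 with SE 0.19, adjusted p = 2.96e-10). For both genes the groups did not overlap. Itgb3, the beta chain that pairs with Itgav in the vitronectin receptor, went the other way, with 278, 303 and 239 in control and 607, 764 and 674 in CK666 (log2 change 1.32 with SE 0.15, adjusted p = 8.47e-18). All 3 CK666 libraries were above every control library.

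Below 2-fold, the integrin chains Itga5 (-0.90 ± 0.09, log2 fold change ± SE), Itgav (-0.69 ± 0.16), Itgb5 (-0.55 ± 0.10) and Itgb1 (-0.29 ± 0.06) fell. So did Fermt2 (-0.94 ± 0.11), the parvin gene Parva (-0.60 ± 0.10), the p130Cas gene Bcar1 (-0.83 ± 0.08), Lims2 (-0.95 ± 0.27), Tns2 (-0.58 ± 0.13) and Tgfb1i1 (-0.55 ± 0.09), the paxillin relative Hic-5. Git1, a scaffold that recruits PAK and PIX to adhesions, rose (0.88 ± 0.09), as did Lims1 (0.39 ± 0.12). Fermt2 read 4469, 4501 and 4517 in control and 2036, 2539.7 and 2449 in CK666, without overlap. Ptk2, which encodes FAK, read 2582, 2412 and 2779 in control and 2476, 2990.1 and 3147 in CK666, and did not pass (log2 change 0.15 with SE 0.13, adjusted p = 0.38). The paxillin gene Pxn, at 821 to 940.4 in control and 779 to 1008 in CK666, did not pass either (log2 change 0.07 with SE 0.14, adjusted p = 0.735). In alternative fits the call was lost for Lims1 without any 1 control library, CK666 replicate 2 or 3 or any 1 CytoD library, in edgeR, in 1 fit of all 18 libraries and in a fit of the 2 groups alone (0.28 to 0.41, adjusted p up to 0.24), Lims2 without any 1 control library or CK666 replicate 2 or 3 and in edgeR (-0.85 to -0.98, adjusted p up to 0.024), Itgav in 1 fit of all 18 libraries (-0.71, adjusted p = 0.0782), Itgb1 in 1 fit of all 18 libraries (-0.30, adjusted p = 0.213) and Tns2 in 1 fit of all 18 libraries (-0.59, adjusted p = 0.077).

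**Figure D2:**
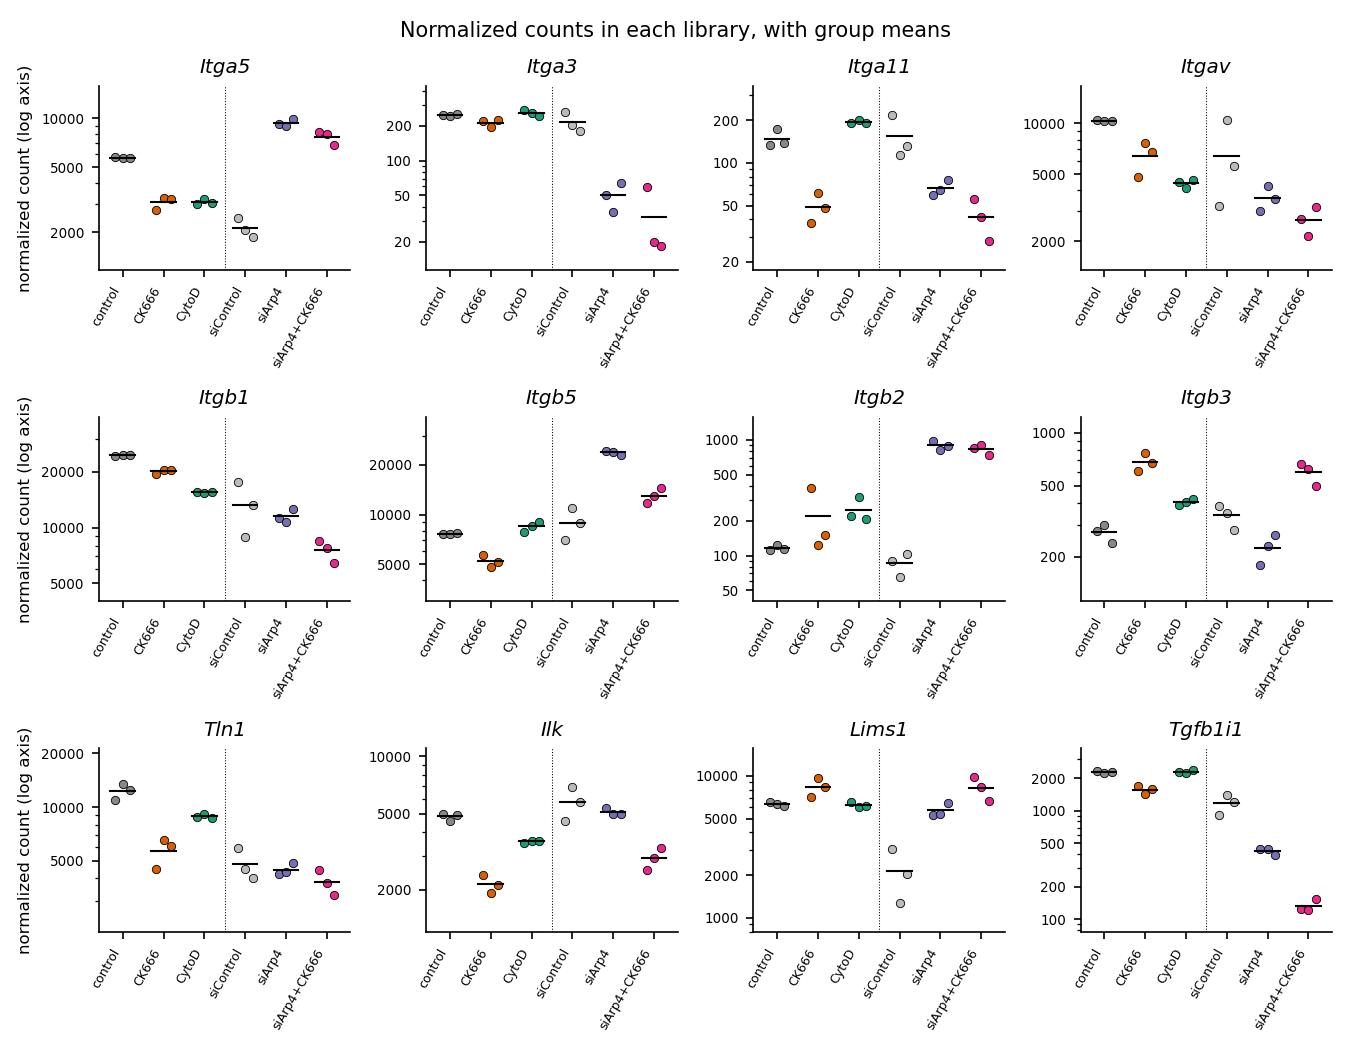
Normalized counts (vertical log axis) of 12 members in each library, by group, with the 3 libraries of a group as points, the mean as a line and a dotted line between the experiments. Itga5 and Itgb5 are high in siArp4, Tln1 and Ilk are low in CK666, and siControl is the widest group for several genes.

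With CytoD, integrin chains were the members that passed 2-fold, Itgav falling and Itga1 rising, and Itga5, Itga6, Itgb1, FAK, p130Cas, talin and ILK fell by less. Of 36 members tested, 8 were lower and 2 higher at adjusted p under 0.01, 27.8% together, against 29.6% of all genes, 16.0% lower and 13.6% higher. By role, 4 of 16 integrin chains tested, 1 of 3 talins and kindlins, 1 of 4 genes of the ILK complex, 1 of 3 kinases, 1 of 7 scaffolds and 0 of 3 tensins fell. Past 2-fold there was 1 in each direction (5.56% of those tested, all genes 9.12%, of which 4.8% higher and 4.32% lower), and the median was -0.06 (all genes 0.01). Of the 9 stromal markers tested, 3 were higher and 1 lower with CytoD, and 2 of 4 leukocyte markers tested were higher, and their part in the members' result was not tested. CytoD and CK666 share their 3 control libraries. Without CK666 replicate 1, which is in neither group compared but shares the fit, the CytoD counts became 17 at adjusted p under 0.01 and 4 past 2-fold. Without control replicate 2 or CytoD replicate 1 there was 1 past 2-fold.

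Itgav read 10419, 10359 and 10279 normalized counts in control, 4814, 7672 and 6722 in CK666 and 4465, 4157 and 4627 in CytoD (log2 change -1.23 with SE 0.16, adjusted p = 6.11e-14). All CytoD libraries lay below all control libraries. Itga1, a collagen receptor alpha chain, was scarce, with 32.4, 18 and 33.8 in control and 85.2, 79.2 and 64.9 in CytoD (log2 change 1.44 with SE 0.37, adjusted p = 5.37e-04), and the groups did not overlap. Its call was lost without control replicate 2 (1.19, adjusted p = 0.0114) and without CytoD replicate 1 (1.36, adjusted p = 0.0118). Itga1 shares sequence with Pelo on the same strand, and such reads cannot be told apart.

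Itga5 fell with either drug, with 5794, 5712 and 5697 normalized counts in control, 2755, 3262 and 3184 in CK666 and 2961, 3201 and 3029 in CytoD (log2 change -0.90 with SE 0.09, adjusted p = 1.48e-20 for CytoD). Both treated groups lay below control and overlapped each other. Itgb1 was 24244, 24603 and 24566 in control, 19438, 20404 and 20379.5 in CK666 and 15588, 15257 and 15575 in CytoD (log2 change -0.66 with SE 0.06, adjusted p = 2.35e-25), 3 groups without overlap. Tln1 was 8815, 9177 and 8658 and Ilk 3528, 3599 and 3611 in CytoD, each below every control library. Ptk2 was 1823, 1831 and 1549 in CytoD, below every control library (log2 change -0.58 with SE 0.13, adjusted p = 3.93e-05). Fermt2, at 3357 to 3930.0 (log2 change -0.32 with SE 0.11, adjusted p = 0.0137), and Pxn, at 923 to 1121 (log2 change 0.21 with SE 0.14, adjusted p = 0.249), did not pass with CytoD. Itga6 (a laminin receptor chain, -0.89 ± 0.16), Bcar1 (-0.54 ± 0.08), Tln1 (-0.47 ± 0.15) and Ilk (-0.44 ± 0.10) fell and Itgb3 (0.57 ± 0.15) rose. Alternative fits lost the call for Tln1 without control replicate 2 or 3 or any 1 CytoD library, in edgeR and in 1 fit of all 18 libraries (-0.40 to -0.49, adjusted p up to 0.0526), Itgb3 without control replicate 3 or CytoD replicate 2 or 3 (0.48 to 0.57, adjusted p up to 0.0191) and Ilk in 1 fit of all 18 libraries (-0.43, adjusted p = 0.0184).

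Set directly against each other, CK666 and CytoD left Itga6, Itgb7 and Git1 higher and Itga11 and Tns3 lower with CK666, past 2-fold. At adjusted p under 0.01 the drugs differed in 8 members that were higher and 12 that were lower with CK666, 55.6% of 36 tested against 31.8% of all genes (16.9% higher and 14.9% lower). Past 2-fold, 3 were higher and 2 lower (13.9%, all genes 11.8%, 5.08% higher and 6.74% lower), and 4 passed without CK666 replicate 1. The median was -0.28 (all genes -0.03). Of 9 stromal markers tested, 6 were lower with CK666, all past 2-fold, and 1 was higher. That list summed to 50711 to 59315 in CK666 and 183185 to 193109 in CytoD, with Cxcl12 at means of 20557 and 107667. Of 5 leukocyte markers tested, 2 were lower past 2-fold and 0 higher. The part of these markers in the members' result was not tested. Itga11 (log2 change -1.98 with SE 0.24, adjusted p = 8.29e-16) and Tns3 (log2 change -1.35 with SE 0.19, adjusted p = 4.97e-11) were lower with CK666, having read 189.7, 199.5 and 191 and 5589, 5533 and 5466 in CytoD. Itga6 read 932, 1457 and 1266 in CK666 and 562, 569 and 557 in CytoD (log2 change 1.11 with SE 0.16, adjusted p = 1.40e-10), with no overlap. Git1 was also higher (3060.1, 3426 and 3373 against 1553, 1497 and 1507, log2 change 1.11 with SE 0.09, adjusted p = 4.61e-33).

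Itgb7, a chain best known from lymphocytes, read 242, 49.3 and 56.0 in CK666 and 36.6, 12.1 and 26.8 in CytoD (log2 change 2.20 with SE 0.59, adjusted p = 7.22e-04). Replicate 1 of CK666 was far above the other 2, and its 12 leukocyte markers summed to 248 against 179 and 205 in the others, with Ptprc at 0 in all 3. Without that library the difference was 1.07, adjusted p = 0.0403. The call was lost for Itgb7 without CK666 replicate 1 or CytoD replicate 2 and in edgeR (1.07 to 2.21, adjusted p up to 0.0403). Among the central members, Itgb1 (0.38 ± 0.06), Itgav (0.54 ± 0.16) and Ptk2 (0.73 ± 0.13) were higher with CK666 and Tln1 (-0.64 ± 0.15), Ilk (-0.75 ± 0.10) and Fermt2 (-0.62 ± 0.11) lower. Itga5 (0.00, 95% interval -0.18 to 0.19) and Pxn (-0.14, -0.41 to 0.14) did not pass. Itgb3 (0.75 ± 0.14) and Lims1 (0.42 ± 0.12) were also higher, and Lims2 (-0.90 ± 0.27), Tns2 (-0.86 ± 0.13), Itgb5 (-0.69 ± 0.10), Ptk2b (-0.58 ± 0.15), Tgfb1i1 (-0.55 ± 0.09), Parva (-0.40 ± 0.10) and Bcar1 (-0.29 ± 0.08) lower. Calls were lost for Bcar1 without any 1 control library, CK666 replicate 2 or 3 or any 1 CytoD library, in edgeR, in 1 fit of all 18 libraries and in a fit of the 2 groups alone (-0.24 to -0.32, adjusted p up to 0.0446), Itgav without CK666 replicate 2 or 3 or CytoD replicate 1 or 2, in edgeR, in 1 fit of all 18 libraries and in a fit of the 2 groups alone (0.39 to 0.54, adjusted p up to 0.213), Lims2 without CK666 replicate 2 or 3 or CytoD replicate 1 or 2, in edgeR and in a fit of the 2 groups alone (-0.64 to -0.93, adjusted p up to 0.0716), Lims1 without CK666 replicate 3 or CytoD replicate 2 or 3, in 1 fit of all 18 libraries and in a fit of the 2 groups alone (0.40 to 0.43, adjusted p up to 0.186), Ptk2b without CK666 replicate 3 or CytoD replicate 2 and in 1 fit of all 18 libraries (-0.54 to -0.59, adjusted p up to 0.0864) and Itgb1 in 1 fit of all 18 libraries (0.36, adjusted p = 0.112).

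Arp4 knockdown moved 11 members past 2-fold, in both directions. Fibronectin and vitronectin receptor chains Itga5 and Itgb5 rose, with the second talin gene Tln2, PINCH1 and Itgb2, while the laminin receptor chain Itga3, the FAK relative Pyk2 and Hic-5 fell. Of 36 members tested, 11 were higher and 5 lower in siArp4 than in siControl, 44.4% against 25.1% of all genes (11.9% higher and 13.1% lower). Past 2-fold, 7 rose and 4 fell (30.6%, all genes 16.2%, 6.69% higher and 9.49% lower), and 12 passed without siControl replicate 2. By role, 4 integrin chains rose and 2 fell of 16 tested, 4 scaffolds rose and 1 fell of 7, 1 of 4 genes of the ILK complex rose, and 0 of 3 tensins passed. The median was 0.17, against -0.05 over all genes. Of 9 stromal markers tested, 2 were higher and 2 lower. Mitochondrial genes held 2.66%, 1.30% and 2.37% of counts in siControl and 2.67%, 2.96% and 3.26% in siArp4. The part of either in the members' result was not tested.

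Itga5 read 2436, 2060.2 and 1883 normalized counts in siControl and 9224, 8954 and 9838 in siArp4, 4.39-fold higher (log2 change 2.13 with SE 0.16, adjusted p = 1.47e-39). The siControl libraries differed from one another, yet each lay far below every siArp4 library. Itgb5 read 6986, 10893 and 8831 and 24274, 23987 and 22862 (log2 change 1.41 with SE 0.20, adjusted p = 2.01e-11), again without overlap. Tln2 had 109, 70.9 and 71.6 and 286, 231 and 279 (log2 change 1.65 with SE 0.24, adjusted p = 1.25e-10). Lims1 had 3048, 1276 and 2048 and 5336, 5365 and 6427 (log2 change 1.43 with SE 0.31, adjusted p = 4.63e-05), and in both genes the groups stood apart.

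Itgb2, the beta chain of leukocyte integrins, read 90.4, 64.9 and 103 in siControl and 984, 825 and 892 in siArp4, 10.3-fold higher (log2 change 3.37 with SE 0.21, adjusted p = 1.27e-55). Its partner Itgal fell, from 68.6, 63.7 and 60.4 to 7.99, 6.30 and 8.73 (log2 change -3.07 with SE 0.42, adjusted p = 1.02e-11). Ptprc, the pan-leukocyte marker, was at 0 in all 6 of these libraries. The 12 leukocyte markers summed to 156 to 399 in siControl and 191 to 198 in siArp4. Of the 6 that were tested, 1 passed, and it was higher, the neutrophil marker Ly6g, which was at 0, 0 and 0 in siControl and 5.86, 6.83 and 11.0 in siArp4 (adjusted p = 0.00612). Its part in the Itgb2 result was not tested.

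Of the members that fell, Itga3 had 263, 204 and 180.0 in siControl and 50.5, 35.9 and 64.1 in siArp4 (log2 change -2.10 with SE 0.45, adjusted p = 3.24e-05). Ptk2b, which encodes Pyk2, had 435, 898 and 503 and 65.4, 103 and 61.6 (log2 change -3.0 with SE 0.37, adjusted p = 2.02e-14). Tgfb1i1 had 914, 1397 and 1218 and 447, 448 and 390.0 (log2 change -1.46 with SE 0.21, adjusted p = 2.10e-10). Every siArp4 library lay below every siControl library for these genes. Itga11 had 218, 114 and 131 and 59.2, 64.3 and 75.9 (log2 change -1.22 with SE 0.36, adjusted p = 0.00346), without overlap. The call was lost for Itga11 without siControl replicate 1 or any 1 siArp4 library and in edgeR (-0.89 to -1.32, adjusted p up to 0.0366).

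Enah, which encodes the filament-elongating protein Mena, and Itga9 also passed 2-fold. Enah, at 3933, 1922 and 2419 in siControl and 5187, 5108 and 6529 in siArp4 (log2 change 1.02 with SE 0.31, adjusted p = 0.00398), gave 0.81, adjusted p = 0.0112 without siControl replicate 2. The call was lost for Enah without siControl replicate 2 or 3 or any 1 siArp4 library and in edgeR (0.81 to 1.09, adjusted p up to 0.0438). Itga9 was near the floor in siControl (3.28, 2.35 and 3.68) against 58.6, 54.2 and 13.6 in siArp4, so its fitted difference of 3.71 is loose (95% interval 2.0 to 5.43). Pxn (778, 757 and 755 in siControl, 1503, 1447 and 1542 in siArp4, log2 change 0.97 with SE 0.11, adjusted p = 3.44e-17), Git1 (0.84 ± 0.11), Bcar1 (0.68 ± 0.17) and Src (0.65 ± 0.16) rose by less, and Fermt2 fell (-0.91 ± 0.28). Calls ended in alternative fits for Fermt2 without siControl replicate 1 or 3, any 1 siArp4 library or siArp4+CK666 replicate 2, in edgeR and in a fit of the 2 groups alone (-0.60 to -1.02, adjusted p up to 0.0525), Bcar1 without siArp4 replicate 1 and in edgeR (0.65 to 0.67, adjusted p up to 0.0145) and Src without siArp4 replicate 1 (0.62, adjusted p = 0.0138).

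In siControl and siArp4, Itgb1 read 17482, 8899.5 and 13196 and 11207, 10676 and 12634 normalized counts, Fermt2 4041, 1988 and 2708 and 1497, 1374 and 1797, and Tln1 5942, 4493 and 4033 and 4208, 4325 and 4885. Fermt2 did not overlap, and siControl spanned more than siArp4 in all 3 genes. Ptk2 ranged over 1129 to 1318 and 1143 to 1267, and Ilk over 4592 to 6925 and 4966 to 5343. Itgb1 (log2 change -0.20 with SE 0.26, adjusted p = 0.603), Itgav (log2 change -0.83 with SE 0.39, adjusted p = 0.0809), Tln1 (log2 change -0.11 with SE 0.21, adjusted p = 0.737), Ptk2 (log2 change 0.04 with SE 0.23, adjusted p = 0.929) and Ilk (log2 change -0.18 with SE 0.20, adjusted p = 0.532) did not pass. The interval for Itgav ran from -1.59 to -0.07, with siControl libraries at 3208, 10412 and 5569.8.

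When CK666 was added to siArp4 cells, the rises of Itga5, Itgb2, Tln2 and Lims1 over siControl still passed, and Itgav, Itgb1 and Ilk were lower than siControl. Itgb5 (log2 change 0.55 with SE 0.20, adjusted p = 0.0167), Itga9 (log2 change 1.14 with SE 0.92, adjusted p = 0.343) and Enah (log2 change 0.86 with SE 0.31, adjusted p = 0.0167), which had passed after knockdown alone, did not pass here, and Itgb5 gave 0.72, adjusted p = 1.06e-04 without siControl replicate 2. In siArp4+CK666 against siControl, 7 members were higher and 9 lower of 36 tested, 44.4% against 29.9% of all genes (14.0% higher and 15.8% lower). Past 2-fold there were 5 each way (27.8%, all genes 20.4%, 8.06% higher and 12.4% lower), and 11 in all without siControl replicate 2. This comparison shares siControl with the previous one. Of 9 stromal markers tested, 4 were lower and 0 higher, and of the 9 estimates 4 pointed up and 5 down. The list summed to 82780 to 124254 in siControl and 62615 to 73556 in siArp4+CK666. Within that sum Cxcl12 fell from a mean of 65306 to 18753. Means were higher for Col1a1 (25998 to 34282), Prrx1 (5367 to 7301) and Pdgfrb (4487 to 5403). The part of these markers in the members' result was not tested. The median of the members was -0.20, against -0.05 over all genes.

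Itga5 stood at 8171, 7988 and 6827 normalized counts in siArp4+CK666 (log2 change 1.85 with SE 0.16, adjusted p = 4.59e-30 against siControl). Itgb2 stood at 846, 895 and 744 (log2 change 3.25 with SE 0.21, adjusted p = 6.91e-52). Tln2 was 271, 246 and 235 (1.57 ± 0.24) and Lims1 9791, 8374 and 6609 (1.96 ± 0.31). None of these groups overlapped siControl. Replicate 3 of siArp4+CK666, which had the lowest Itgb2 of its group, was also the one library with Ptprc above 0 (1.08), and the leukocyte markers of the group summed to 152 to 399.

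Tgfb1i1 fell to 125, 122 and 154 (log2 change -3.14 with SE 0.22, adjusted p = 6.96e-43). Ptk2b was 66.7, 101 and 58.3 (-3.03 ± 0.37) and Itga3 59.3, 19.6 and 18.2 (-2.74 ± 0.46). Itga11 was 55.7, 41.5 and 28.1 (-1.88 ± 0.37). All 4 groups lay below siControl. Git1 rose (1.57 ± 0.11), and Itgav fell to 2713, 2155 and 3177 (log2 change -1.25 with SE 0.39, adjusted p = 0.00439). Without siControl replicate 2 it was -0.71, adjusted p = 0.0283. The call was lost for Itgav without siControl replicate 2 or 3 or siArp4+CK666 replicate 1 or 2, in edgeR and in a fit of the 2 groups alone (-0.71 to -1.35, adjusted p up to 0.0399). Ilk (-0.98 ± 0.20), Itgb1 (-0.80 ± 0.26), Fermt2 (-0.88 ± 0.28) and Parva (-0.59 ± 0.16) fell under 2-fold and Pxn (0.60 ± 0.11) and Itgb3 (0.81 ± 0.23) rose. Under 2-fold, calls ended for Itgb1 without siControl replicate 1 or 3, any 1 siArp4 library or any 1 siArp4+CK666 library, in edgeR and in a fit of the 2 groups alone (-0.55 to -0.89, adjusted p up to 0.0502), Fermt2 without siControl replicate 1 or 3, any 1 siArp4 library or any 1 siArp4+CK666 library, in edgeR and in a fit of the 2 groups alone (-0.57 to -0.98, adjusted p up to 0.0476), Itgb3 without siControl replicate 3 or siArp4+CK666 replicate 1 or 2 and in edgeR (0.68 to 0.79, adjusted p up to 0.0268) and Parva without siArp4+CK666 replicate 2 or 3 and in a fit of the 2 groups alone (-0.53 to -0.59, adjusted p up to 0.0243). In siArp4+CK666, Itgb1 read 6443 to 8479 normalized counts, Fermt2 1325 to 1814, Ilk 2544 to 3308, Pxn 1112 to 1196, Tln1 3203 to 4439.8 and Ptk2 793 to 1342. Tln1 (log2 change -0.34 with SE 0.21, adjusted p = 0.195) and Ptk2 (log2 change -0.25 with SE 0.23, adjusted p = 0.409) did not pass.

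Within siArp4 cells, CK666 raised Itgb3 and lowered Hic-5 past 2-fold, and lowered Itgb5, ILK, Src and paxillin by less. Of 35 tested, 2 were higher and 5 lower in siArp4+CK666 than in siArp4, 20% against 9.9% of all genes (3.82% higher and 6.07% lower). Without siControl replicate 2, which is in neither group compared but shares the fit, 10 passed. Past 2-fold there was 1 in each direction (5.71%, all genes 5.75%, 1.63% higher and 4.12% lower), or 4 in all without that library or without siControl replicate 1. At adjusted p under 0.01 there were 3 without siArp4 replicate 1 or siArp4+CK666 replicate 1 and 4 without siArp4+CK666 replicate 2. The median was -0.29, against 0.02 over all genes. Of 9 stromal markers tested, 3 were lower, all past 2-fold, and 1 was higher. That list summed to 113916 to 124048 in siArp4 and 62615 to 73556 in siArp4+CK666. Within it the mean of Col1a1 went from 84628 to 34282 and that of Cxcl12 from 12265 to 18753. The part of these markers in the members' result was not tested. Itgb3 rose from 180.2, 228 and 264 to 668, 623 and 501 (log2 change 1.42 with SE 0.23, adjusted p = 3.83e-08). Tgfb1i1 fell from 447, 448 and 390.0 to 125, 122 and 154 (log2 change -1.68 with SE 0.22, adjusted p = 5.93e-12). Neither pair of groups overlapped. Itgb5 (11682, 12878 and 14524 in siArp4+CK666, log2 change -0.86 with SE 0.20, adjusted p = 2.23e-04), Ilk (-0.80 ± 0.20), Src (-0.72 ± 0.16) and Pxn (-0.37 ± 0.11) fell by less and Git1 (0.73 ± 0.11) rose. Alternative fits ended the call for Pxn without siControl replicate 1 or 3, any 1 siArp4 library or any 1 siArp4+CK666 library and in edgeR (-0.35 to -0.40, adjusted p up to 0.152), Ilk without any 1 siArp4 library or siArp4+CK666 replicate 1 or 2 and in edgeR (-0.71 to -0.82, adjusted p up to 0.0273), Itgb5 without siArp4 replicate 1 or 2 or siArp4+CK666 replicate 1 or 2 and in edgeR (-0.79 to -0.86, adjusted p up to 0.016) and Src without siArp4 replicate 1 or siArp4+CK666 replicate 1 and in edgeR (-0.67 to -0.72, adjusted p up to 0.0178). Itga5 (log2 change -0.29 with SE 0.16, adjusted p = 0.257), Itgb1 (log2 change -0.61 with SE 0.26, adjusted p = 0.107), Itgav (log2 change -0.42 with SE 0.39, adjusted p = 0.588), Tln1 (log2 change -0.23 with SE 0.21, adjusted p = 0.583), Ptk2 (log2 change -0.29 with SE 0.23, adjusted p = 0.509) and Fermt2 (log2 change 0.03 with SE 0.28, adjusted p = 0.979) did not pass.

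The difference between the CK666 effect in siArp4 cells and that in untransfected cells was tested over all 18 libraries. Of 36 members, 3 passed upward and 1 downward, 11.1% against 7.8% of all genes (3.75% upward and 4.05% downward), and past 2-fold 1 passed (2.78%, all genes 4.4%, 1.89% upward and 2.51% downward). Without siControl replicate 2 there were 7 and 2, without siControl replicate 1 there were 8 and 4, and without siArp4+CK666 replicate 3 there were 7 and 3. Without CK666 replicate 2 or siArp4 replicate 3, 2 passed 2-fold. The median difference was -0.13 (all genes -0.03). Tgfb1i1 fell more in siArp4 cells (-1.68) than in untransfected cells (-0.55), a difference of -1.14 ± 0.22 (adjusted p = 1.29e-05). The other 3 fell in untransfected cells and did not pass in siArp4 cells, with differences of 0.87 ± 0.24 for Tln1 (adjusted p = 0.00553), 0.61 ± 0.15 for Itga5 (adjusted p = 8.91e-04) and 0.65 ± 0.15 for Bcar1 (adjusted p = 3.62e-04). Calls here were lost for Itga5 in edgeR (0.60, adjusted p = 0.0235), Bcar1 in edgeR (0.64, adjusted p = 0.0253) and Tln1 without control replicate 2 or 3, CK666 replicate 1 or 3, siArp4 replicate 1 or 2 or siArp4+CK666 replicate 1 or 2 and in edgeR (0.72 to 0.91, adjusted p up to 0.0351). Knockdown, transfection and experiment change together here and cannot be told apart.

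**Figure D3:**
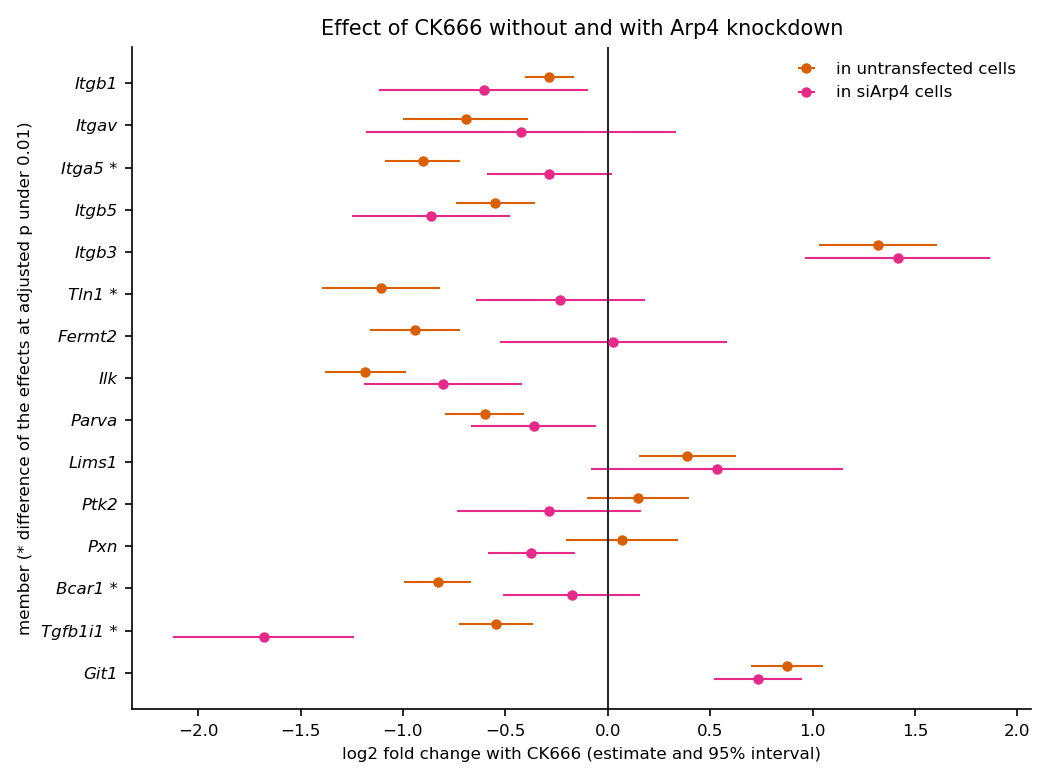
Log2 fold change with CK666 (horizontal axis, with its 95% interval) of 15 members (vertical axis), in untransfected MSC and in siArp4 MSC. An asterisk marks the members whose 2 effects differed at adjusted p under 0.01, which are Itga5, Tln1, Bcar1 and Tgfb1i1, and Tgfb1i1 is the one of these that was lower in siArp4 MSC (-1.68 against -0.55).

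The make-up of the integrin pool is given per kilobase as shares, a description with no test. Itgb1 held 72.5% ± 0.136 of all beta chain signal in control (SD, n = 3), 74.2% ± 2.65 in CK666 and 59.7% ± 1.73 in CytoD, and Itgb5 held 26.0% ± 0.233, 22.2% ± 1.66 and 37.5% ± 1.74. CytoD did not overlap the other 2 groups. In the second experiment Itgb1 held 40.4% to 66.7% in siControl, 26.9% to 31.1% in siArp4 and 26.1% to 35.6% in siArp4+CK666, and Itgb5 was the larger share after knockdown (64.6% to 69.4% in siArp4, against 30.6% to 56.8% in siControl). With CK666 added it was 56.3% to 67.6%, which overlapped the siControl range only through siControl replicate 2 (56.8%). In control the alpha pool was mainly Itga5 and Itgav (50% ± 0.276 and 41.4% ± 0.10). With lengths of the longest transcript their order turned (41.8% and 47.2%). In the second experiment Itga5 held 28.3% to 53.5% of it in siControl and 79.2% to 83.9% in siArp4, and Itgav 32.4% to 65.6% and 12.7% to 17.1%. The ratio of Itga5 to Itgav per kilobase was 0.431 to 1.65 in siControl, 4.62 to 6.62 in siArp4 and 4.68 to 8.07 in siArp4+CK666.

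**Figure D4:**
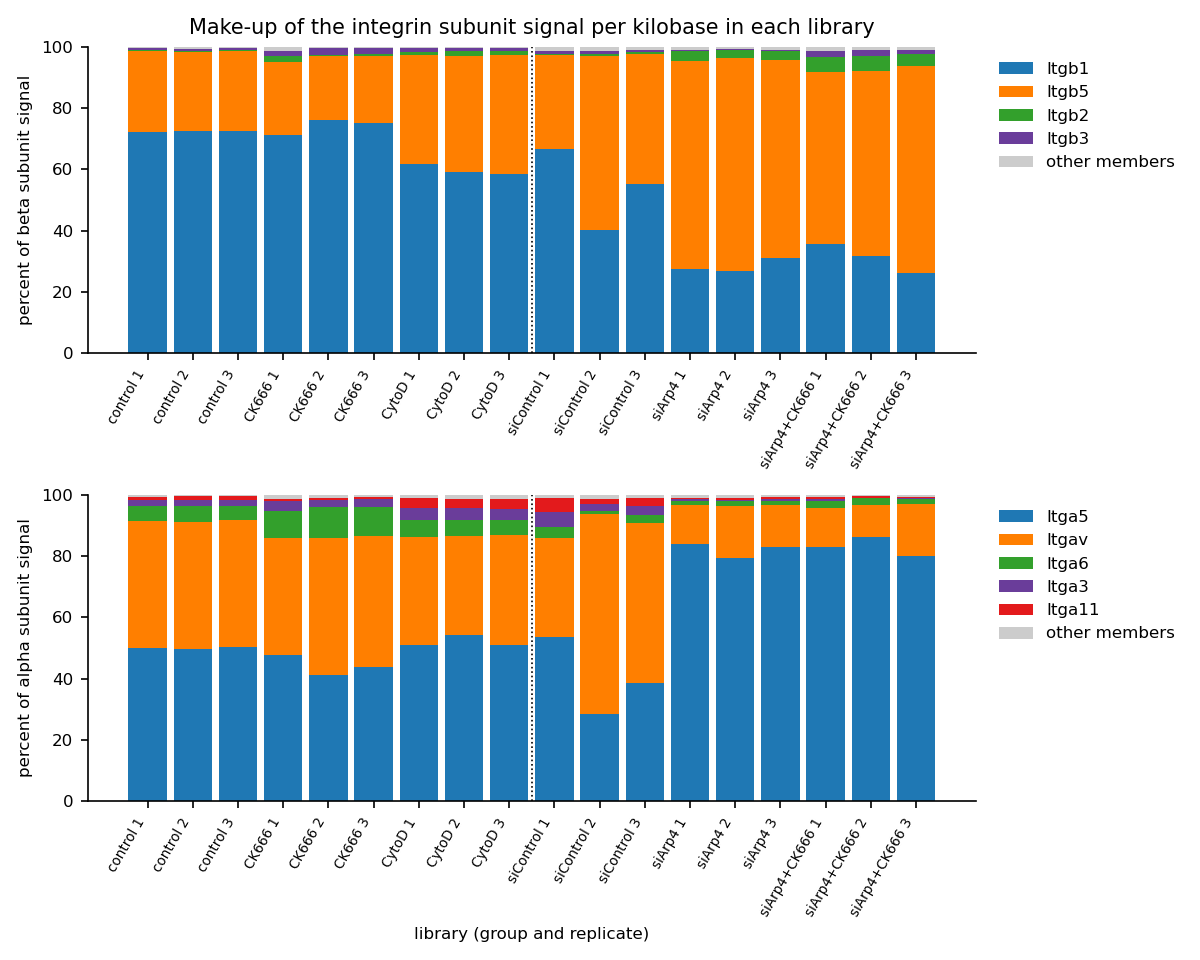
Share of integrin beta (top) and alpha (bottom) signal per kilobase from each chain, in percent (vertical axis), for each of the 18 libraries (horizontal axis), as stacked bars. Itgb5 and Itga5 fill most of the pool in siArp4 and siArp4+CK666. Itgb1 fills most of the beta pool in control, CK666 and CytoD and in siControl replicates 1 and 3.

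Further lists cover the neighbours of the members, cytoplasmic adaptors and extracellular ligands. Of 29 further adaptors and actin linkers tested with CK666, 16 fell and 1 rose, 8 of them falling over 2-fold, with a median of -0.73. That is 55.2% lower and 3.45% higher, against 14.7% and 15.3% of all genes. Vcl, the vinculin that reinforces talin on actin, read 8958, 10023 and 9457 in control and 1756, 2850.1 and 2723 in CK666 (log2 change -1.96 with SE 0.17, adjusted p = 2.43e-30), with no overlap. With CytoD, 13 of 27 fell (48.1%, all genes 16.0%) and 0 rose, all under 2-fold, including Vcl (-0.81 ± 0.17) and the zyxin gene Zyx (-0.82 ± 0.07, and -0.55 ± 0.07 with CK666). CK666 against CytoD gave 3 higher and 12 lower (51.7%, all genes 31.8%), the largest over 2-fold being Ppfia1 (1.06 ± 0.18) and Kank2 (-1.16 ± 0.13).

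In siArp4, 7 of 29 adaptors rose and 5 fell (41.4%, all genes 25.1%), led by the filamin gene Flnc (1.61 ± 0.38) and Sorbs2 (-1.45 ± 0.39), and Vcl did not pass (log2 change 1.19 with SE 0.44, adjusted p = 0.0239). In siArp4+CK666 5 rose and 6 fell against siControl (37.9%, all genes 29.9%), led by Limd1 (1.91 ± 0.14) and Sorbs3 (-2.28 ± 0.23). Against siArp4, 7 fell and 0 rose (24.1%, all genes 9.9%), with Csrp1 falling most (-1.50 ± 0.23) and Zyx falling (-0.80 ± 0.19). Pdlim5 led the genes of the list whose CK666 effect differed (1.19 ± 0.35).

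Among 30 integrin ligands tested with CK666, 3 rose and 9 fell, 40% against 30.0% of all genes. Thbs1, the matrix glycoprotein thrombospondin 1, read 107600.0, 118205 and 117621 in control and 8057, 12694 and 12009 in CK666 (log2 change -3.39 with SE 0.16, adjusted p = 2.34e-101), and the laminin chain Lama1 rose (1.26 ± 0.25). CytoD gave 3 rises, with Lama1 largest (1.35 ± 0.25), and 6 falls, with Ccn1 largest (-1.63 ± 0.11), and the share that passed (30.0%) was near that of all genes (29.6%). CK666 against CytoD gave 4 higher and 7 lower (36.7%, all genes 31.8%), with Thbs1 lowest (-2.66 ± 0.16).

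With siArp4, 8 of 29 ligands rose and 3 fell (37.9%, all genes 25.1%), with Lama1 (2.30 ± 0.52) and Adam15 (-2.61 ± 0.55) at the ends. Fn1, the fibronectin bound by the Itga5 and Itgb1 pair, was among those that rose (60242, 37801 and 49371 in siControl, 108175, 108469 and 123807 in siArp4, log2 change 1.21 with SE 0.20, adjusted p = 3.23e-08). It did not pass with CK666 (log2 change -0.11 with SE 0.16, adjusted p = 0.639). Adding CK666 to siArp4 lowered 10 of 28 (35.7%, all genes 6.07% lower) and raised 0, including Fn1 (-0.75 ± 0.20) and, furthest, the nephronectin gene Npnt (-2.72 ± 0.41). Against siControl, siArp4+CK666 had 3 higher and 8 lower (37.9%, all genes 29.9%), from Lama1 (2.79 ± 0.52) to Npnt (-2.73 ± 0.41). The CK666 effect differed most for Thbs1 (2.18 ± 0.27) and Fbln5 (-2.23 ± 0.20).

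**Figure D5:**
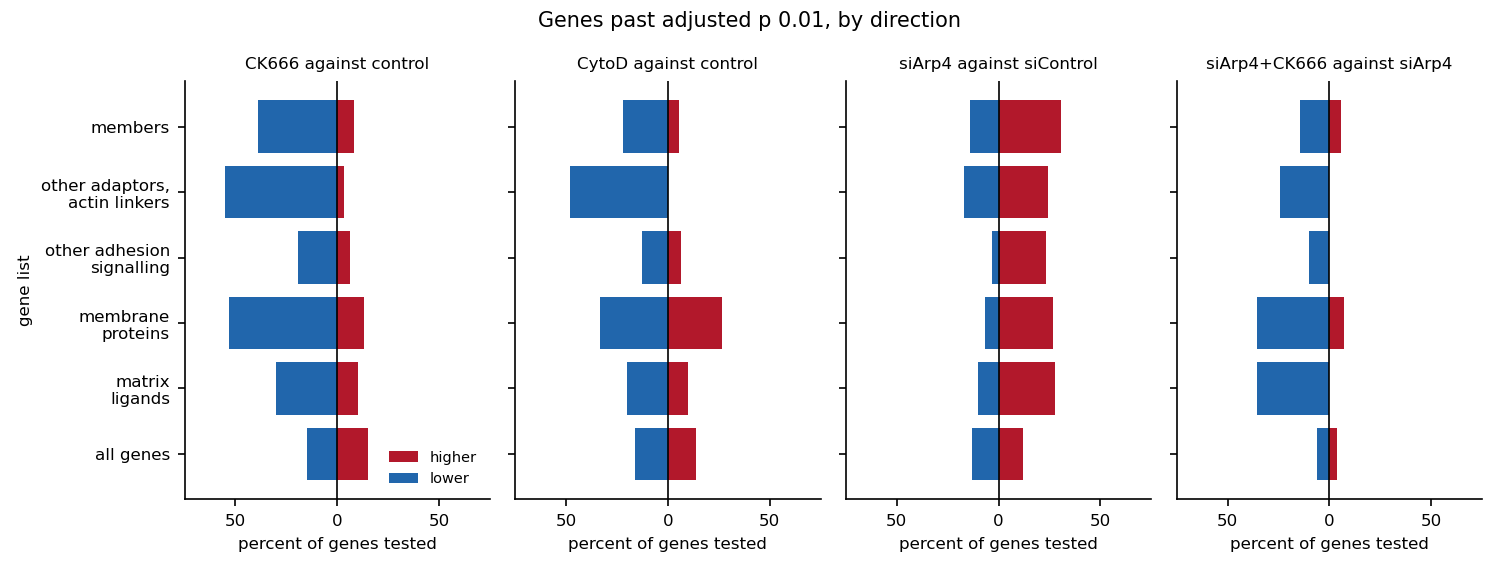
Percent of genes tested (horizontal axis) that were higher or lower at adjusted p under 0.01 in 4 comparisons, for the members, 4 further pathway lists and all genes (vertical axis). The adaptors have the largest lower share with CK666 and CytoD.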

How the data were processed

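RNA was sequenced from 18 libraries of marrow MSC, 3 in each of 6 groups, taken from the sample labels. The deposited values are estimated counts per gene that the authors made with Salmon 1.2.1 against the GENCODE M25 transcripts of GRCm38 (mm10). They are not whole numbers, so they were rounded. How transcripts were summed to genes is not given in the sources used here. Each experiment (9 libraries) was fitted with DESeq2 1.42.0 in R 4.3.3 (Wald test, group as the one term, no shrinkage, Benjamini-Hochberg over all genes tested, alpha 0.01), the tool and thresholds of the study. Members were called at an adjusted p under 0.01, with and without an absolute log2 fold change over 1. The difference between CK666 effects was tested in 1 fit over all 18 libraries. Symbols and exon lengths came from GENCODE M21, which held 54094 of the 54347 identifiers. Levels per kilobase divide by the union of exons.

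Library totals ran from 18075610 to 24733212. Before testing, the fits were run on simulated data with 200 changed genes. No 2 libraries agreed within sampling noise (chi-square per degree of freedom at least 6.80). Alternatives were TMM scaling, a filter of 10 counts in at least 3 libraries, edgeR 4.0.16, other sets of libraries in the fit, a replicate block, each library left out, and, added after seeing the data, a correction of each library's trend with transcript length (loess span 0.5). Members and lists were chosen with earlier results of these data known. In each comparison members past both thresholds were named, with values per library for the 4 largest rises and 4 largest falls with a mean count of at least 50 where more than 8 passed, 8 central members were always described, and of other lists the largest rise and fall past both thresholds with a mean of at least 50 were named, plus Vcl, Zyx and Fn1. Epithelial, endothelial, leukocyte and erythroid markers were fixed as lists of other cell types.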

Additional observations from a re-analysis of the deposited data

Results flagged for a closer look

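In 4 members the effect of CK666 differed between siArp4 cells and untransfected cells in the test of the difference itself (DESeq2 interaction over all 18 libraries). The difference, siArp4 cells minus untransfected cells on the log2 scale, was 0.61 for Itga5, 0.87 for Tln1 and 0.65 for Bcar1, each of which fell in untransfected cells. It was -1.14 for Tgfb1i1, which fell in both settings. These settings differ in transfection and experiment as well as in Arp4.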

How the results depend on the processing

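Over 36 calls past 2-fold in the 7 tests, 31 stayed under adjusted p 0.01 in every alternative with the same sign and 29 also stayed past 2-fold. No member reversed. Counts moved by over 1.5 times in some alternatives, and the cause was not tested. With only the 2 groups in the fit, CytoD gave 4 members past 2-fold and 17 at adjusted p under 0.01, and siArp4+CK666 against siArp4 gave 5 and 12. EdgeR gave 3 for the latter at adjusted p under 0.01 and 1 for the difference of CK666 effects. Removing the length trend, an alternative chosen after seeing the data, gave 3 past 2-fold and 9 at adjusted p under 0.01 for that difference. Leaving out 1 library at a time gave 1 to 4 members past 2-fold and 8 to 17 at adjusted p under 0.01 for CytoD, 2 to 4 and 3 to 10 for siArp4+CK666 against siArp4, and 1 to 4 and 3 to 8 for the difference of CK666 effects. With lengths of the longest transcript, the control share of Itgb1 was 72.2% and that of Itgb5 26.3%. In the alpha pool Itga5 then held 41.8% and Itgav 47.2% in control, so which of these chains was larger depended on the length used. Replicate numbers did not pair the samples. Same-numbered libraries correlated from -0.59 to 0.78 in their deviations, 5 of 18 pairs were over 0.1, and 8 of 18 libraries were closest to their own number. A replicate block gave 2 members past 2-fold for the difference of CK666 effects and moved no other count by over 1.5 times. It ended the adjusted p calls of Lims1 (0.012) and Lims2 (0.011) with CK666, of Bcar1 (0.012) and Lims2 (0.018) in CK666 against CytoD and of Pxn (0.079) in siArp4+CK666 against siArp4, and 7 further member results passed. Depth limits Itga2, Itga4, Itga8 and Fermt1, which could not be tested, and groups of 3 limit every spread given.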

Other observations

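Integrin-associated membrane proteins form a further list outside the members. Of 15 tested with CK666, 2 rose and 8 fell (DESeq2, adjusted p under 0.01), 66.7% against 30.0% of all genes. Slc3a2, the CD98 heavy chain that binds beta tails and carries amino acid transporters, read 3059, 3056 and 2985 normalized counts in control and 24437, 15196 and 17404 in CK666 (log2 change 2.65 with SE 0.16, adjusted p = 4.69e-59), without overlap. Emp1, a tetraspan membrane protein, fell (log2 change -1.93 with SE 0.07, adjusted p = 1.42e-165). With CytoD, 4 rose and 5 fell (60%, all genes 29.6%), all under 2-fold. Against CytoD the CK666 cells had higher Slc3a2 (3.25 ± 0.16) and lower Emp1 (-1.46 ± 0.07). In siArp4, 4 rose, Sdc2 furthest (1.35 ± 0.21), and 1 fell (33.3%, all genes 25.1%). In siArp4+CK666 against siControl, 5 rose and 3 fell (53.3%, all genes 29.9%), from Slc3a2 (2.02 ± 0.28) to Sdc3 (-1.74 ± 0.14). Against siArp4, 1 of 14 rose (Slc3a2, 1.38 ± 0.28) and 5 fell, Emp1 furthest (-1.19 ± 0.17), 42.9% against 9.9% of all genes. The CK666 effects differed for 5 of 15 (33.3%, all genes 7.8%), including Sdc4 (1.03 ± 0.26) and Slc3a2 (-1.27 ± 0.33).

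Of 31 further adhesion signalling genes tested with CK666, 2 rose and 6 fell (25.8%, all genes 30.0%), among them Pak1 (-1.03 ± 0.14), a kinase downstream of Rac. CytoD gave 2 and 4 (19.4%, all genes 29.6%), all under 2-fold. CK666 against CytoD gave 3 and 7 (32.3%, all genes 31.8%), with the Src family kinase Fyn higher (1.42 ± 0.15). In siArp4, 7 of 30 rose, Nck2 furthest (1.46 ± 0.17), and 1 fell (26.7%, all genes 25.1%). siArp4+CK666 gave 5 and 3 against siControl (26.7%, all genes 29.9%), with Nck2 at 1.82 ± 0.17. Against siArp4 it gave 0 and 3 (10%, all genes 9.9%), with Fyn at -1.0 ± 0.18. Fyn also differed in its CK666 effect (-1.83 ± 0.21). Of the leukocyte-type alpha chains outside the members, Itgad read 38.8, 41.6 and 56.7 in control and 106, 117 and 130.3 in CytoD (log2 change 1.36 with SE 0.25, adjusted p = 5.63e-07), and Itgal 154, 103 and 118 and 322, 352 and 329 (log2 change 1.42 with SE 0.23, adjusted p = 7.80e-09). Itgal was lower in CK666 than in CytoD (-1.88 ± 0.23). Itgad read 52.4, 107 and 63.6 in siControl, 15.6, 9.12 and 6.44 after knockdown (-2.83 ± 0.51) and 75.1, 157 and 96.2 with CK666 added (3.40 ± 0.51 against siArp4), and its CK666 effect differed (2.49 ± 0.55). Of the 8 other integrin chains listed, 5 were not tested with CytoD and the 3 that were (Itgad, Itgal and Itga2b) rose, as did 13.6% of all genes. Leukocyte markers moved with them, 2 of 4 tested being higher in CytoD past 2-fold, Cd68 with 55.7, 32.9 and 36.4 in control and 112, 112 and 112 in CytoD and Lyz2 with 42.0, 24.5 and 40.3 and 86.5, 76.6 and 61.9. The 12 markers summed to 227 to 293 in control and 361 to 393 in CytoD, with Ptprc at 0 in all 6 libraries. The part of these markers' shift in the rise of the chains was not tested. Itga2b is itself the megakaryocyte marker that rose (log2 change 1.48 with SE 0.39, adjusted p = 8.09e-04).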
